A study of Mus musculus with 3 samples.

Results

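A core set of 9 target genes of the tumour suppressor p53, and Trp53, the gene that encodes p53, were followed through 6 cell compartments of mouse lung. The genes were Cdkn1a, Mdm2, Ccng1, Phlda3, Eda2r, Trp53inp1, Zmat3, Sesn1, Aen and Trp53, which are 10 of the 31054 features in the count tables, and each was taken by its symbol. Cells were assigned to a compartment by the unique molecular identifiers (UMIs, here the transcripts counted) of a few defining genes. T cells had at least 2 UMIs of Cd3d, Cd3e and Cd3g together, B cells at least 2 of Cd79a, and NK cells at least 1 of Ncr1 with none of the 3 Cd3 genes. Endothelial cells had at least 2 UMIs of Pecam1 and Cdh5 together, fibroblasts at least 2 of Col1a1 and Col1a2 together, and epithelial cells at least 1 of Epcam with none of Ptprc. Only barcodes with at least 250 genes and at most 15% mitochondrial UMIs were used.

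Lung tissue came from 3 groups of mice with 1 single-cell library each. The first came from conditional knockout mice that were irradiated and given a drug, the second from irradiated wild-type mice, and the third, the control, from wild-type mice without irradiation. The labels name neither the knocked-out gene, its driver nor the drug, and state no radiation dose, time, age or number of mice per library. Knockout and drug therefore cannot be told apart, and no targeted gene could be looked at. A single library per group leaves animal-to-animal variation unmeasured and allows no test, so each difference below compares libraries. Intervals are 95% intervals for counting error only, exact Poisson for levels, exact binomial for shares of cells and exact conditional binomial for ratios.

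Ionising radiation breaks DNA, and the kinases that sense the breaks stabilise the p53 protein, which then binds short DNA elements near its target genes and raises their transcription. Among the products, p21 (Cdkn1a) arrests the cell cycle, Mdm2 and cyclin G1 act in the feedback that removes p53, and others take part in cell death, survival signalling, RNA binding or the response to oxidative stress. Because p53 is controlled mainly through the stability of its protein, the level of Trp53 mRNA is not by itself a readout of p53 activity. Lymphocytes are classically radiosensitive cells, while lung endothelium, fibroblasts and epithelium are long-lived and can carry a lasting damage response.

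The p53 binding element is built from half-sites of 3 purines, a C, 2 bases that are A or T, a G and 3 pyrimidines, a pattern that reads the same on both strands. This half-site was searched with no mismatch in the RefSeq windows (GRCm38.p6) from 250 bases before to 50 bases after each annotated start, which were at hand for 8 of the 10 genes in 11 windows. It was present in 7 of these 11 windows (63.6%), against 2745 of all 32851 windows (8.36%). The 7 windows belong to 6 genes, since Aen has windows of 2 annotated starts that hold the same half-site. Only Cdkn1a had 2 half-sites spaced by at most 13 bases, which 24 of all windows (0.0731%) had. The stretches that hold a half-site are shown because they are the DNA through which such genes can share a response, with the half-sites in capitals, 5′ to 3′ on the gene's strand and 60 bases each. A match in letters does not show binding, and the absence of one in this window says nothing on p53 elements elsewhere in a gene.
Cdkn1a (chr17:29090892-29090951, plus strand): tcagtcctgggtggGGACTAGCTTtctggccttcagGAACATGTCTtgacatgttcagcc
Mdm2 (chr10:117710910-117710969, minus strand): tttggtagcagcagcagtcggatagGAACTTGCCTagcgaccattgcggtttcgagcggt
Ccng1 (chr11:40755437-40755496, minus strand): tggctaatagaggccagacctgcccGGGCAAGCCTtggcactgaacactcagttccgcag
Sesn1 (chr10:41887241-41887300, plus strand): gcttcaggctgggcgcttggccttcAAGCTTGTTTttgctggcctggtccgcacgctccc
Aen (chr7:78895912-78895971, plus strand): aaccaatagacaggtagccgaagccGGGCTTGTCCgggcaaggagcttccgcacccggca
Trp53 (chr11:69580259-69580318, plus strand): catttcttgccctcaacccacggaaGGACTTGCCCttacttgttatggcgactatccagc
In Cdkn1a the 2 half-sites span bases -73 to -42 from the first of 2 annotated starts. The window of its second start (chr17:29093519-29093818) held no half-site. Sesn1 likewise had a window of another annotated start (chr10:41810324-41810623) with none. The half-site of Aen lies at bases 11 to 20 from its first annotated start and begins at base -121 from the second. Phlda3 and Eda2r had windows with no half-site. The Cdkn1a gene itself (ENSMUSG00000023067) lies on chromosome 17 from 29090976 to 29100727 on the plus strand in GRCm38.

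The libraries held 76667310 UMIs in 11292 barcodes for the irradiated conditional knockout with drug, 45800421 in 7084 for irradiated wild-type and 85984536 in 15485 for non-irradiated wild-type. After filtering 9886, 5805 and 13091 cells were kept in that order, with medians of 6070.5, 5706 and 4899 UMIs per cell. Pairs of libraries shared 25 to 46 barcodes, at most 0.407% of the smaller one. Cells with Y-linked and no Xist transcripts (male type) were 27 in the conditional knockout library, 1595 (27.5%) in the irradiated wild-type library and 1 in the non-irradiated library, so the irradiated wild-type library held cells of both types. The ratios that cells of female type alone moved across the counting error or across 2-fold are given together below. Sftpc, a surfactant gene of alveolar type 2 cells, stood in the T cell gate at 290.3 CPM (UMIs of the gene per 1000000 UMIs of all cells in the compartment), 84.2 CPM and 2669 CPM in the same order, and the source of these transcripts was not tested.

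The endothelial gate did not hold mainly endothelial cells after irradiation. It took 695 cells of the conditional knockout library, 401 of the irradiated wild-type and 2945 of the non-irradiated one. Of these, 419, 294 and 668 had transcripts of the leukocyte gene Ptprc, and 387, 296 and 275 had none of 8 further endothelial markers such as Cldn5, Kdr and Tie1. A marker-checked set was therefore added after the data were seen, in which a cell needs at least 3 markers of its own compartment that the gate does not use, and more of them than of any other cell type. It kept 234 (33.7%), 84 (20.9%) and 2083 (70.7%) of the cells in the endothelial gate in the same order. In the 5 other gates 54.2% to 88.8% of cells were kept, and the marker-checked sets held 781, 364 and 3142 fibroblasts, 103, 85 and 245 epithelial cells, 4254, 2187 and 1421 T cells, 635, 507 and 1064 B cells, and 386, 300 and 236 NK cells. The gate is therefore called the Pecam1/Cdh5 gate below where all of its cells are meant.

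Within the Pecam1/Cdh5 gate, the libraries lay further apart in Cdkn1a and Phlda3 among cells that passed the marker check than among those that failed it. Cdkn1a stood at 755 CPM in marker-checked endothelial cells of the conditional knockout library, 941 CPM in irradiated wild-type and 236 CPM in non-irradiated cells. In the other cells of the gate it stood at 221, 277 and 199.6 CPM in the same order. Phlda3 was 509.6, 432 and 143 CPM in marker-checked cells and 33.6, 42.4 and 70.6 CPM in the others. Trp53inp1 differed in the others as well, at 83.0, 135 and 46.0 CPM. Over the whole gate Phlda3 came to 166, 103 and 119 CPM, so its irradiated wild-type value lay below the non-irradiated one although it was 3.02-fold higher in marker-checked cells.

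**Figure D1:**
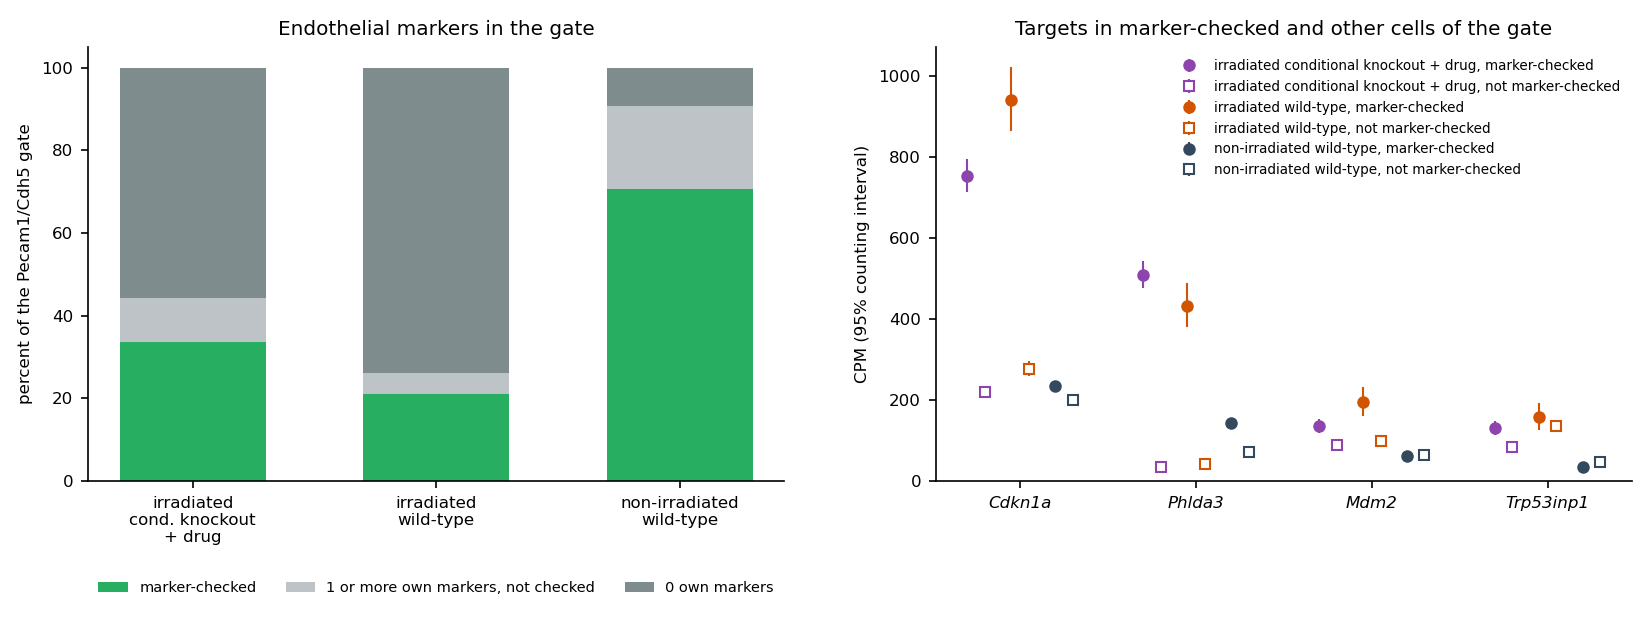
Left: percent of the cells of the Pecam1/Cdh5 gate by endothelial marker content in each library. Right: CPM of Cdkn1a, Phlda3, Mdm2 and Trp53inp1 (linear axis from 0, lines are 95% counting intervals) in marker-checked cells (circles) and other cells of the gate (open squares), by library. The marker-checked share is 33.7% and 20.9% in the irradiated libraries and 70.7% in the non-irradiated one, and Cdkn1a in marker-checked cells is 755, 941 and 236 CPM in the same order.

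Most of the 9 p53 target genes were higher in the structural compartments (endothelium, fibroblasts and epithelium) of both irradiated libraries than in the non-irradiated one. In T, B and NK cells fewer of the values were 2-fold higher. By the gates, 0.635%, 0.59% and 1.03% of all genes were higher there in irradiated than in non-irradiated wild-type. In the Pecam1/Cdh5 gate and the epithelium 5.95% and 6.31% were, and in fibroblasts 0.61%. The lower count in lymphocytes is therefore not by itself a result on the targets. Trp53inp1, Sesn1 and Mdm2 were among the targets higher, short of 2-fold, in irradiated wild-type than in non-irradiated T cells. A value was counted as higher or lower when it was at least 2-fold apart with 5 CPM added to both sides and the mean level would give at least 10 UMIs in the smaller library. Of the 27 values that 9 targets have in 3 structural compartments, 8 were at least 2-fold higher in irradiated wild-type than in non-irradiated cells by the gates and 17 in marker-checked cells, where 25 of the 27 had enough UMIs. For the conditional knockout with drug against the same non-irradiated library 11 were higher by the gates and 16 in marker-checked cells. In marker-checked cells of female type alone the counts were 17 and 17. The 8 and the 11 gate values were all among the marker-checked ones, and none of the structural values was 2-fold lower. Both pairs of libraries use the same non-irradiated library, so their likeness is not independent.

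**Figure D2:**
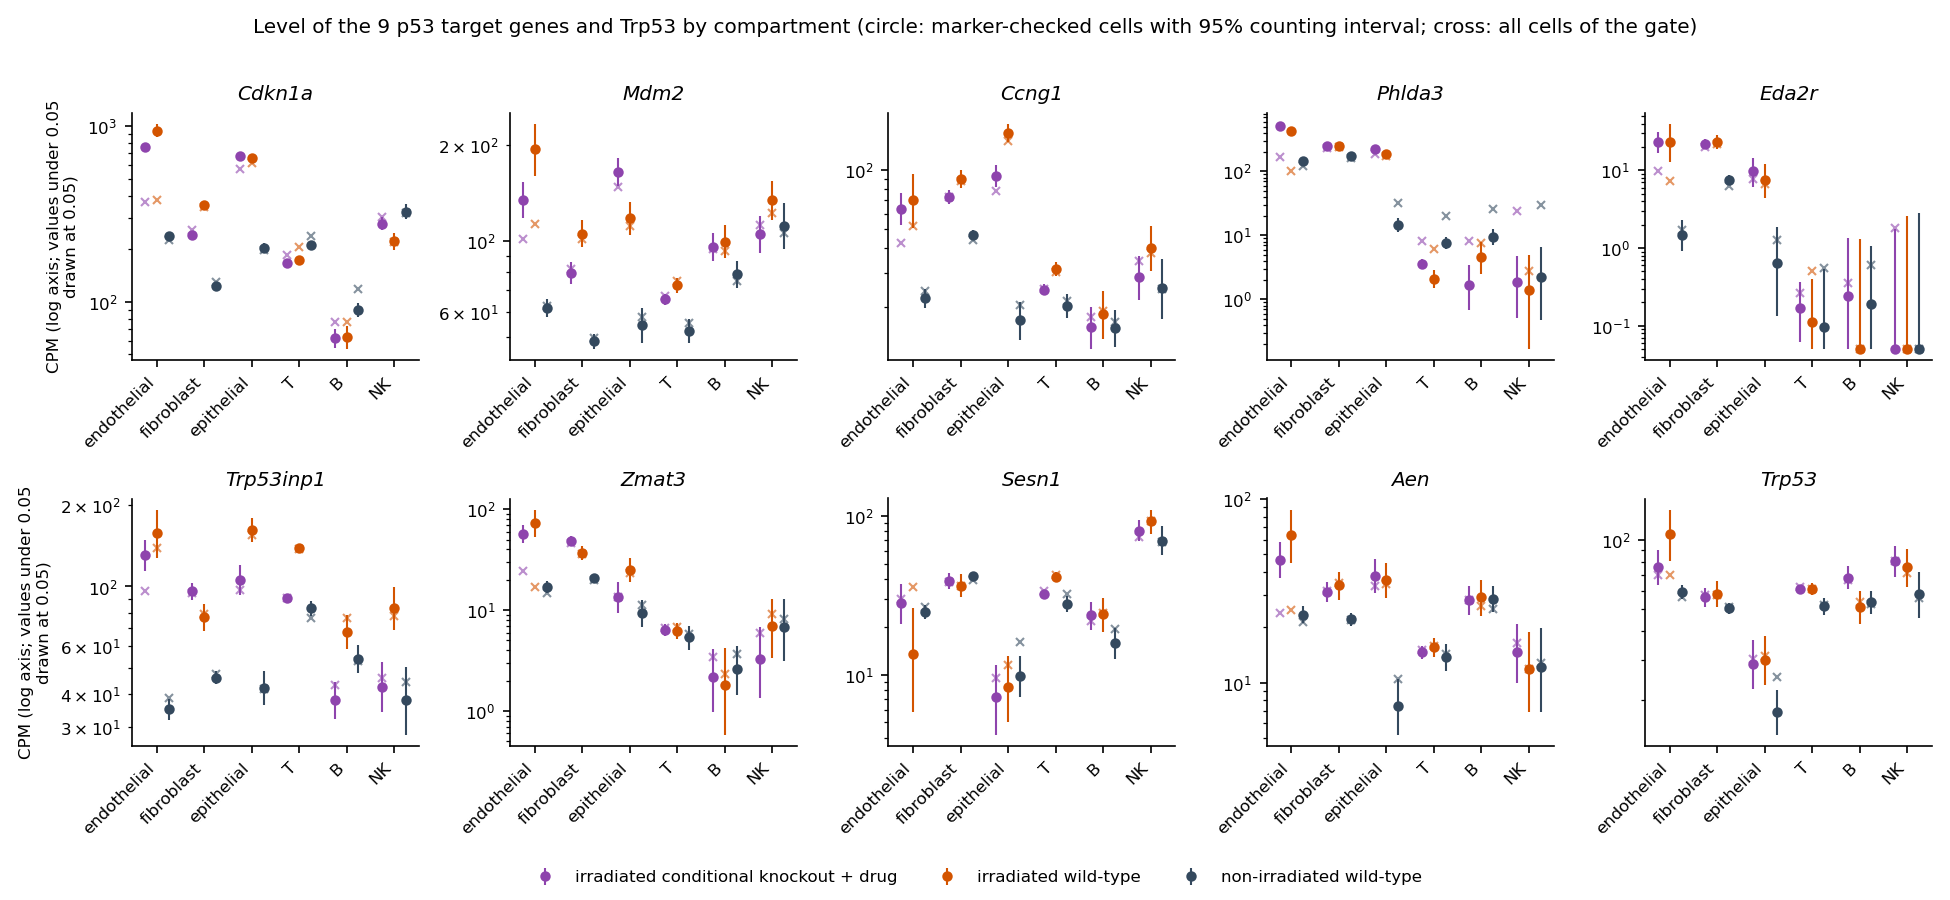
Level of each of the 9 targets and of Trp53 in CPM (log axis) in 6 compartments, with the irradiated conditional knockout with drug, irradiated wild-type and non-irradiated wild-type libraries from left to right. Circles are marker-checked cells with 95% counting intervals and crosses all cells of the gate; values under 0.05 CPM are drawn at 0.05. Both irradiated libraries lie above the non-irradiated one for most targets in endothelium and epithelium, as for Phlda3 in epithelium at 224, 189 and 14.5 CPM.

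By compartment, in the irradiated wild-type over the non-irradiated library, the marker-checked endothelial cells had 7 of 9 targets at least 2-fold higher, where 3.48% of all genes were. Marker-checked fibroblasts had 3 of 9, where 0.798% of all genes were, and epithelial cells 7 of 9, where 8.28% were. By the gates the counts were 1 (Trp53inp1, with 5.95% of all genes), 2 (Cdkn1a and Eda2r, with 0.61%) and 5 (with 6.31%). The median log2 ratio of the targets with enough UMIs was 1.57 in marker-checked endothelial cells (8 targets), 0.69 in fibroblasts (9) and 1.70 in epithelial cells (8). The medians of all genes were 0.05, 0.04 and 0.35. In the epithelium all genes together thus leaned upward, and the targets stood above that.

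For the conditional knockout with drug over the non-irradiated library, 7 of 9 targets were higher in marker-checked endothelial cells (2.2% of all genes), 2 in fibroblasts (Eda2r and Zmat3, with 0.705%) and 7 in epithelial cells (8.34%). By the gates the counts were 2 (Eda2r and Trp53inp1, with 4.38% of all genes), 2 (Eda2r and Zmat3, with 0.774%) and 7 (with 5.44%). The median log2 ratios of the 9 targets in marker-checked cells were 1.51, 0.66 and 1.52 for endothelium, fibroblasts and epithelium, with 0.03, 0.05 and 0.29 for all genes. When every cell weighed the same the gate count of 11 became 5, and in cells thinned to 1000 UMIs it became 4.

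**Figure D3:**
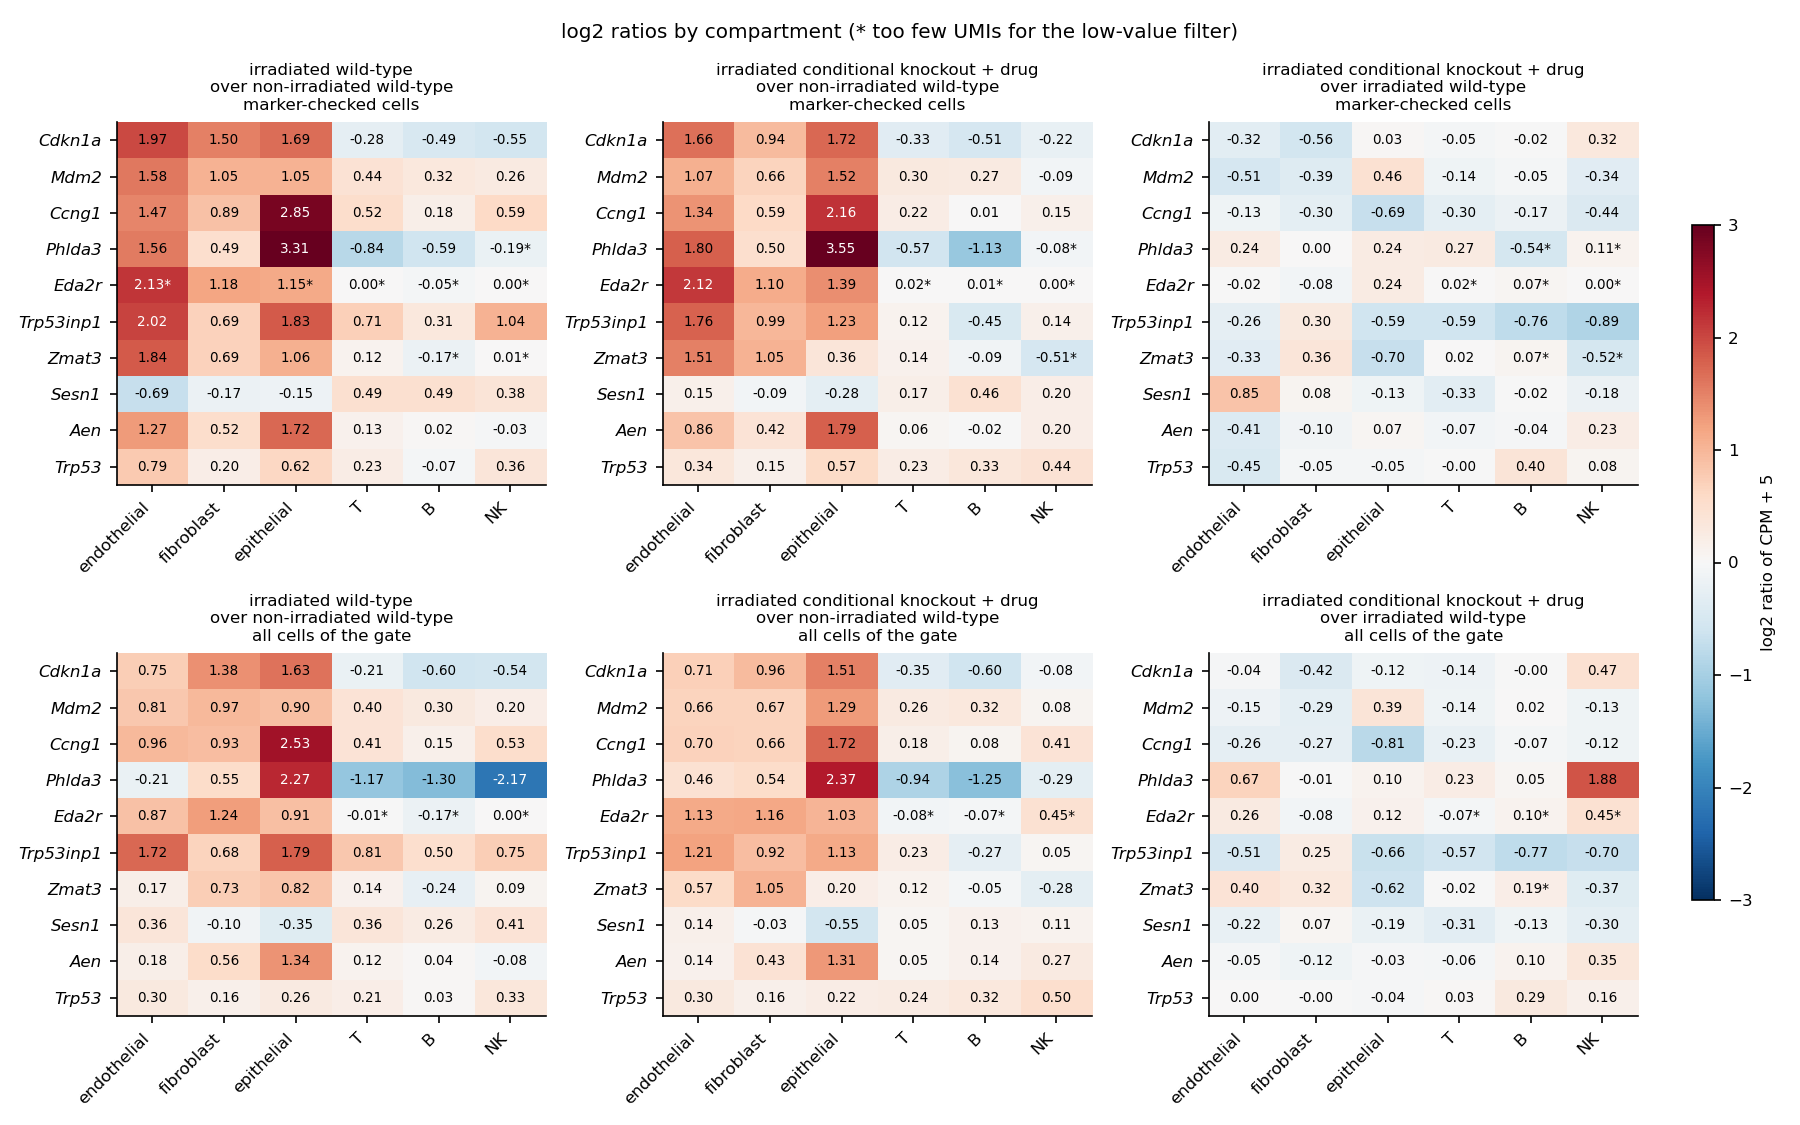
log2 ratio with 5 CPM added to both sides for each target and Trp53 (down) in each compartment (across), for 3 pairs of libraries, in marker-checked cells and in all cells of the gate. Asterisks mark values with too few UMIs for the low-value filter. The first 2 pairs share the non-irradiated library; the values of Phlda3 in marker-checked epithelium are 3.31 for irradiated wild-type and 3.55 for the conditional knockout with drug over non-irradiated wild-type.

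Cdkn1a encodes p21, the inhibitor of cyclin-dependent kinases. In marker-checked endothelial cells its 755 CPM (715 to 796) in the conditional knockout and 941 CPM (865 to 1023) in irradiated wild-type were 3.20-fold (3.00 to 3.41) and 3.99-fold (3.64 to 4.37) the 236 CPM (228 to 244) of non-irradiated cells. In fibroblasts it stood at 238 CPM (228 to 249.6), 354 CPM (336 to 374) and 122 CPM (118 to 126), and in epithelial cells at 672.5 CPM, 659 CPM (626 to 693) and 201 CPM (188 to 214). The irradiated libraries were apart from the non-irradiated one by more than the counting error in all 3 compartments, and apart from each other in endothelium and fibroblasts. In epithelial cells of female type alone they were apart as well, at 788 CPM in the conditional knockout and 606 CPM in irradiated wild-type. Of the 5 male type cells so left out of irradiated wild-type, 1 held 74.6% of their Cdkn1a UMIs. By the gates the epithelial log2 ratio of conditional knockout over irradiated wild-type was -0.120. It ran from -0.771 to 0.144 over the alternatives, so its direction was not kept. In cells thinned to 1000 UMIs, 45.4%, 57.9% and 20.5% of endothelial cells had a Cdkn1a UMI, so the share of positive cells was higher as well. In fibroblasts of female type alone Cdkn1a stood at 238, 398 and 123 CPM, so the irradiated wild-type value lay above that of all its fibroblasts.

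Mdm2, the ubiquitin ligase that marks p53 for degradation, had 135, 194 and 61.6 CPM in marker-checked endothelial cells of the conditional knockout, irradiated wild-type and non-irradiated libraries. It had 79.2, 106 and 48.4 CPM in fibroblasts and 165, 118 and 54.3 CPM in epithelial cells. Its ratio of irradiated to non-irradiated wild-type was 3.15 (2.57 to 3.83), 2.18 (1.95 to 2.44) and 2.17 (1.82 to 2.59) in these compartments. Ccng1, cyclin G1, had 63.6, 70.4 and 22.2 CPM in endothelium and 72.8, 90.5 and 46.7 CPM in fibroblasts. Its epithelial values were 93.6, 155 and 17.1 CPM, so that irradiated wild-type was 9.04-fold (7.07 to 11.7) higher than non-irradiated epithelium. Mdm2 was higher in the conditional knockout than in the irradiated wild-type epithelium and Ccng1 lower, at ratios of 1.40 (1.19 to 1.64) and 0.606 (0.509 to 0.719). By the gates the log2 ratio of Mdm2 was 0.387 and ran from -0.286 to 0.483 over the alternatives, so its direction was not kept. That of Ccng1 was -0.811 and ran from -2.33 to -0.697.

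Phlda3, a pleckstrin-homology protein that restrains the survival kinase Akt, had the largest epithelial ratios of the 9 targets. It stood at 224 CPM (205 to 244) in the conditional knockout, 189 CPM (172 to 208) in irradiated wild-type and 14.5 CPM (11.3 to 18.4) in non-irradiated marker-checked epithelium, 15.41-fold (11.96 to 20.1) and 13.02-fold (10.1 to 17.1) higher than non-irradiated epithelium. Fibroblasts had 251 CPM in both irradiated libraries and 177 CPM in the non-irradiated one, only 1.42-fold apart. A Phlda3 UMI was found in 63.1%, 64.7% and 13.9% of epithelial cells, against 1.04%, 0.667% and 1.27% of NK cells, which should lack it. Median depth was 17583, 17825 and 15143 UMIs in these epithelial cells and 4879, 4308 and 4889 UMIs in the NK cells.

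Eda2r, a death receptor of the tumour necrosis factor receptor family that lies on the X chromosome, was nearly absent from non-irradiated endothelium. It had 23.1 CPM (16.6 to 31.3, 41 UMIs) in the conditional knockout, 23.5 CPM (12.8 to 39.3, 14 UMIs) in irradiated wild-type and 1.48 CPM (0.918 to 2.27, 21 UMIs) in non-irradiated marker-checked endothelial cells. The ratios were 15.6 (8.99 to 27.7) and 15.8 (7.44 to 32.6), although the second had too few UMIs for the count above. Fibroblasts had 21.8, 23.3 and 7.51 CPM, and epithelial cells 9.74, 7.48 and 0.641 CPM, the last from 3 UMIs, with ratios of 15.2 (4.59 to 79.0) and 11.7 (3.38 to 62.2). In marker-checked NK cells Eda2r had 0 UMIs in each library, which allows up to 1.42, 2.08 and 2.28 CPM at 3 UMIs. Few Eda2r transcripts were found in other such lymphocytes: T cells had 6, 2 and 1 UMIs in all and B cells 1, 0 and 1. By the gates, NK cells of the conditional knockout had some, with a log2 ratio of 0.451 over the non-irradiated library.

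Trp53inp1, a nuclear protein of p53-dependent cell death and autophagy, had 131, 157 and 35.1 CPM in marker-checked endothelium and 106, 162 and 42.1 CPM in epithelium. In fibroblasts it had 95.9 CPM (89.1 to 103) in the conditional knockout, 76.9 CPM (68.5 to 86.1) in irradiated wild-type and 45.9 CPM (43.3 to 48.5) in non-irradiated cells. Aen, an exonuclease that acts in apoptosis, had 46.7, 63.7 and 23.4 CPM in endothelium, 31.3, 33.8 and 22.2 CPM in fibroblasts and 38.1, 36.1 and 7.48 CPM in epithelium. Zmat3, a zinc-finger protein that binds RNA, had 57.4, 73.7 and 16.9 CPM in endothelium, 48.7, 36.9 and 20.9 CPM in fibroblasts and 13.6, 25.1 and 9.40 CPM in epithelium. For these 3 genes both irradiated libraries stood above the non-irradiated one in all 3 compartments, but for Zmat3 in conditional knockout epithelium the interval of the ratio, 0.884 to 2.32, includes no difference.

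Sesn1, a sestrin that acts in the response to oxidative stress and restrains mTORC1, was the exception among the targets. It had 28.2 CPM (20.9 to 37.1), 13.4 CPM (5.79 to 26.4) and 24.8 CPM (22.3 to 27.5) in marker-checked endothelium of the conditional knockout, irradiated wild-type and non-irradiated libraries, where the irradiated wild-type value rests on 8 UMIs. It had 38.8, 36.4 and 41.7 CPM in fibroblasts and 7.20, 8.36 and 9.83 CPM in epithelium. None of these 6 ratios to the non-irradiated library was beyond the counting error. Trp53 itself had 76.0, 106 and 59.1 CPM in endothelium, 56.1, 58.2 and 50.2 CPM in fibroblasts and 28.8, 29.9 and 17.7 CPM in epithelium. Its ratios of irradiated to non-irradiated wild-type were 1.79 (1.36 to 2.31), 1.16 (1.00 to 1.34) and 1.69 (1.21 to 2.35), each short of 2-fold. In endothelial cells of female type alone it was 2.14 (1.57 to 2.86), at 126 and 58.9 CPM from 49 and 797 UMIs.

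The mix of cells within a compartment differed between libraries, most in the epithelium. Sftpc stood at 41462, 30389 and 120525 CPM in marker-checked epithelium of the conditional knockout, irradiated wild-type and non-irradiated libraries, and the 10 genes of the dissociation stress list summed to 7655, 7026 and 15085 CPM. Within cells that carried Foxj1, which marks ciliated cells (30, 33 and 39 cells), Cdkn1a stood at 582, 534 and 242 CPM, Phlda3 at 212, 201 and 31.6 CPM and Trp53inp1 at 225.5, 244 and 83.2 CPM. Within cells that carried Ager, a gene of alveolar type 1 cells (48, 39 and 205 cells), Cdkn1a stood at 877, 921 and 190.6 CPM and Phlda3 at 271, 244 and 9.59 CPM. Within cells that carried Lamp3, of alveolar type 2 cells (34, 25 and 195 cells), Cdkn1a stood at 677, 968 and 208 CPM and Phlda3 at 173, 269.98 and 6.33 CPM. In each of these subsets both irradiated libraries stood above the non-irradiated one, while Ccng1 in the Foxj1 cells had 35.4 CPM (22.7 to 52.6) in the conditional knockout, 106 CPM (87.2 to 129) in irradiated wild-type and 16.2 CPM (10.0 to 24.7) in non-irradiated cells. The Ager and Lamp3 subsets share cells, as their 205 and 195 of 245 non-irradiated cells show, so they do not separate type 1 from type 2 cells. The part of the cell mix in the epithelial values was not tested.

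Endothelial cells with and without Car4, a gene of the gas-exchange capillaries, were alike in direction. Cdkn1a had 864, 902 and 251 CPM with a Car4 UMI (103, 51 and 841 cells) and 642, 988 and 214.5 CPM without (131, 33 and 1242 cells), in the conditional knockout, irradiated wild-type and non-irradiated libraries. Fibroblasts were less even. Those with no UMI of Inmt, an enzyme gene abundant in alveolar fibroblasts (93, 37 and 212 cells), had Cdkn1a at 504 CPM (464 to 548), 519 CPM (458.5 to 585) and 139 CPM (121 to 159). Those with Inmt (688, 327 and 2930 cells) had 194 CPM (183 to 205), 329 CPM (310.3 to 349) and 121 CPM (117 to 125). Phlda3 followed the same split, at 389, 375 and 126 CPM without Inmt and 228, 232 and 179.6 CPM with it. The lower Cdkn1a of the conditional knockout fibroblasts lay in the cells with Inmt, whereas in those without it the intervals of both irradiated libraries overlapped.

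In lymphocytes 24 of the 27 target values had enough UMIs by the gates. None of them was at least 2-fold higher in irradiated wild-type than in non-irradiated cells, where 0.635% of all genes in T, 0.59% in B and 1.03% in NK cells were. With shares that low, a count of none says little on the targets. The 3 lower values were all of Phlda3, where 4.73%, 6.89% and 6.92% of all genes were lower in T, B and NK cells. In marker-checked lymphocytes 1 value of the 21 with enough UMIs was higher (Trp53inp1 in NK cells) and none lower, where 1.05% and 2.38% of all genes were. With median-of-ratios scaling, or with every cell weighing the same, that value was short of 2-fold and the count was 0. For the conditional knockout with drug over non-irradiated lymphocytes, none of the 24 with enough UMIs was higher by the gates (0.389% of all genes) and 1 was lower (Phlda3 in B cells, with 4.57%). For the conditional knockout over non-irradiated marker-checked T, B and NK cells, 8, 8 and 6 targets had enough UMIs. Their median log2 ratios were 0.13, -0.06 and 0.15, with 0.03, -0.03 and 0.03 for all genes. For irradiated wild-type, with 8, 7 and 6 targets, the medians were 0.28, 0.18 and 0.32, with 0.12, 0.09 and 0.16 for all genes. With the targets of too few UMIs included they were 0.12, -0.02 and 0.00 for the conditional knockout and 0.13, 0.02 and 0.01 for irradiated wild-type.

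Cdkn1a, 3.20-fold and 3.99-fold higher in irradiated endothelium, was slightly lower in irradiated lymphocytes. It stood at 166 CPM (162 to 171), 172 CPM (166 to 179) and 210.4 CPM (202 to 219) in marker-checked T cells of the conditional knockout, irradiated wild-type and non-irradiated libraries. B cells had 61.9, 62.6 and 90.1 CPM, and NK cells 278, 221 and 325 CPM. The ratio of irradiated to non-irradiated wild-type was 0.819 (0.776 to 0.866) in T, 0.695 (0.581 to 0.828) in B and 0.680 (0.587 to 0.788) in NK cells, each short of 2-fold. The 10 genes of the dissociation stress list had the same order of libraries, with sums of 3258, 3455 and 3776 CPM in T cells, 4466, 5341 and 6185 CPM in B cells and 3722, 3251 and 4361 CPM in NK cells. Their part in the Cdkn1a values was not tested. Mdm2 was slightly higher in irradiated T and B cells, with 65.5, 72.5 and 52.3 CPM in T and 95.8, 99.7 and 78.6 CPM in B cells, although in B cells of female type alone its ratio of irradiated to non-irradiated wild-type was 1.20 (0.979 to 1.46). Sesn1, which was not apart in structural cells, had 32.1, 41.5 and 28.1 CPM in T cells and 80.8, 92.3 and 69.9 CPM in NK cells, and its ratio of irradiated to non-irradiated wild-type T cells was 1.48 (1.29 to 1.70). In T cells that carried Cd8a or Cd8b1, Cdkn1a had 92.0, 64.9 and 135 CPM, and in T cells with the γδ receptor gene Trdc 275.5, 324 and 400.0 CPM.

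The lower Phlda3 of the irradiated lymphocyte gates was small in absolute level. By the gates it had 8.03, 6.09 and 19.9 CPM in T cells, 8.05, 7.61 and 26.0 CPM in B cells and 23.9, 2.83 and 30.3 CPM in NK cells of the conditional knockout, irradiated wild-type and non-irradiated libraries, the NK values from 65, 5 and 59 UMIs. Transcripts of other cell types moved with it. The 8 endothelial markers summed to 35.6, 12.4 and 289.5 CPM in the T gate and 112, 4.53 and 279.7 CPM in the NK gate, and the 8 fibroblast markers to 139.6, 98.5 and 489.7 CPM and 332, 74.1 and 823 CPM. In irradiated wild-type NK cells the endothelial markers Kdr, Emcn and Tek were at 0. Their part in the Phlda3 values was not tested. In marker-checked cells Phlda3 had 3.54, 2.09 and 7.66 CPM in T cells, 1.67, 4.68 and 9.59 CPM in B cells, and 4, 2 and 3 UMIs in NK cells.

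Trp53inp1 was the target furthest above the non-irradiated library in T and NK cells, and this held for the irradiated wild-type library. Marker-checked T cells had 90.3 CPM (87.2 to 93.5) in the conditional knockout, 139 CPM (133 to 144) in irradiated wild-type and 82.9 CPM (77.5 to 88.7) in non-irradiated mice. B cells had 38.0, 68.0 and 53.8 CPM and NK cells 42.5 CPM (34.2 to 52.3), 83.3 CPM (69.0 to 99.6) and 38.0 CPM (28.2 to 50.1). Irradiated wild-type was highest within T cells with Cd4, at 130.3, 185 and 128 CPM, within those with Cd8a or Cd8b1, at 63.4, 95.3 and 62.9 CPM, and within those with Trdc, at 106, 152 and 87.4 CPM. Irradiated wild-type T cells of female and male type had 138 and 146 CPM of Trp53inp1. Other measures moved with it: the ribosomal protein share of T cell UMIs was 33.9%, 28.9% and 34.0%, and Usp7, a deubiquitinase of Mdm2 and p53, had 75.0, 109.8 and 80.4 CPM in T cells, 96.3, 162 and 99.9 CPM in B cells and 67.1, 121 and 57.8 CPM in NK cells. Their part in the Trp53inp1 values was not tested.

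**Figure D4:**
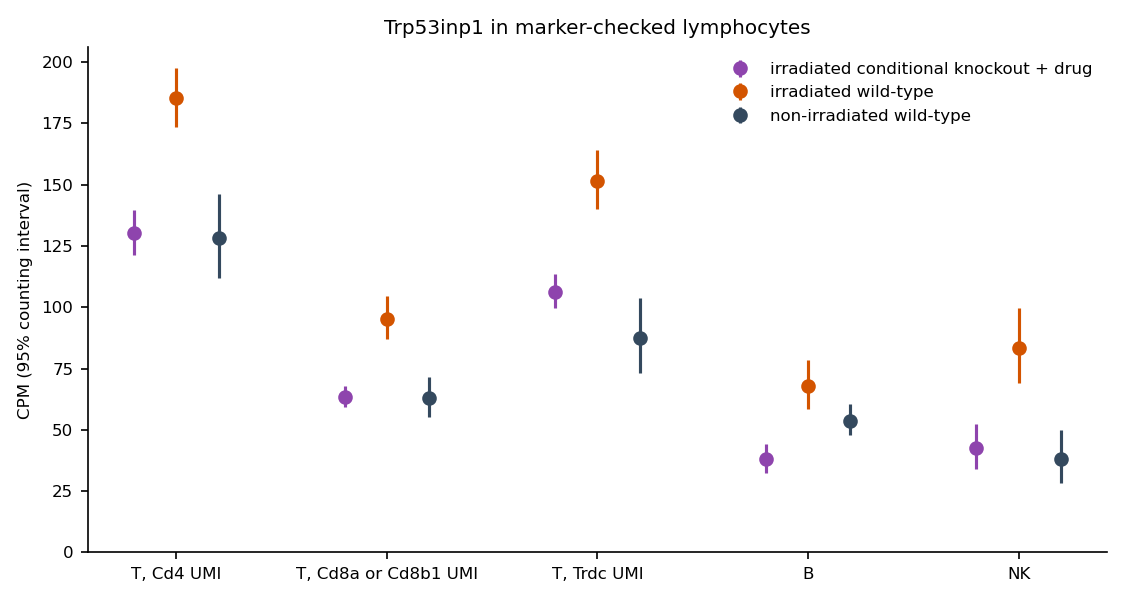
Trp53inp1 in CPM (points on a linear axis from 0, lines are 95% counting intervals) in marker-checked T cells with Cd4, with Cd8a or Cd8b1 and with Trdc, in B cells and in NK cells, by library. The irradiated wild-type points are the highest in each group, at 185, 95.3, 152, 68.0 and 83.3 CPM.

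Set against irradiated wild-type, the conditional knockout with drug had few target values 2-fold apart, and few of all genes were. Several target ratios short of 2-fold were beyond the counting error and are given below. None of the 27 structural values was at least 2-fold higher (1.22% of all genes by the gates, 1.04% in marker-checked cells) or lower (0.835% and 0.699%). In lymphocytes 1 was higher by the gates, Phlda3 in NK cells (1.19% of all genes), and none in marker-checked cells (0.354%), and none was lower by the gates (0.552%) or in marker-checked cells (0.671%). The median log2 ratio of the 9 targets in marker-checked cells was -0.26 in endothelium, -0.08 in fibroblasts and 0.03 in epithelium, with -0.04, 0.02 and -0.04 for all genes. Cdkn1a was lower in conditional knockout fibroblasts at a ratio of 0.673 (0.627 to 0.722) and in endothelium at 0.802 (0.726 to 0.886). The dissociation stress list was likewise lower there, with sums of 7625 CPM in conditional knockout and 10353 CPM in irradiated wild-type fibroblasts and 4545 and 5759 CPM in endothelium, and its part was not tested. Phlda3 had a ratio of 1.18 (1.03 to 1.36) in endothelium, which in cells of female type alone was 1.04 (0.885 to 1.22), and 1.00 (0.926 to 1.08) in fibroblasts. Trp53inp1 was lower in T cells at 0.652 (0.619 to 0.687), in B cells at 0.559 (0.450 to 0.694) and in NK cells at 0.511 (0.384 to 0.677). Zmat3 was higher in fibroblasts at 1.32 (1.09 to 1.61), and at 1.45 (1.16 to 1.83) in those of female type alone. Trp53inp1 had a ratio of 1.25 (1.09 to 1.43) in all fibroblasts but 1.14 (0.988 to 1.33) in those of female type.

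Cells of female type alone moved further ratios of marker-checked cells across the counting error or across 2-fold. Between the conditional knockout and irradiated wild-type, Trp53inp1 in NK cells was then 2-fold lower, at 40.3 and 91.2 CPM. Cdkn1a in epithelium was higher at a ratio of 1.30 (1.20 to 1.41), with the limits given for it above. Ccng1 in NK cells was lower at 0.588 (0.366 to 0.962). Zmat3 in epithelium, Mdm2 in T cells, Phlda3 in B cells and Cdkn1a in NK cells were no longer beyond the counting error. For irradiated over non-irradiated wild-type, Ccng1 in fibroblasts, at 100.4 and 46.9 CPM, was past 2-fold and Zmat3 in epithelium, at 24.0 and 9.69 CPM, just short of it. Sesn1 in epithelium was lower at 0.450 (0.183 to 0.967), from 8 and 44 UMIs. Phlda3 and Sesn1 in B cells, Sesn1 in NK cells and Trp53 in fibroblasts were no longer beyond the counting error there. In the conditional knockout over the non-irradiated library, Trp53inp1 in fibroblasts, at 97.0 and 45.9 CPM, was past 2-fold, and Zmat3 in epithelium was beyond the counting error at 1.66 (1.02 to 2.67). Trp53inp1 and Sesn1 in T cells and Trp53 in fibroblasts were not. With those of Phlda3, Trp53inp1, Mdm2 and Trp53 given above, these are all the ratios so moved, and no ratio lay beyond the counting error in opposite directions in the 2 sets.

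Single cells carried several targets at once more often after irradiation in structural compartments. With each cell thinned to 1000 UMIs, 33.3% (27.1 to 40.0) of conditional knockout, 47.4% (35.8 to 59.2) of irradiated wild-type and 8.61% (7.40 to 9.94) of non-irradiated endothelial cells had UMIs of at least 2 of the 9 targets. Fibroblasts had 18.1%, 18.4% and 7.23%, and epithelial cells 21.4%, 34.1% and 3.67%. T cells had 4.25%, 6.63% and 4.86%, B cells 2.05%, 2.17% and 3.01%, and NK cells 7.77%, 9.33% and 8.51%. The T cell interval of irradiated wild-type, 5.63 to 7.76, lay above that of the conditional knockout, 3.67 to 4.91, and overlapped that of the non-irradiated library, 3.80 to 6.11, while the B and NK intervals overlapped among all libraries. Thinning left out 18, 8 and 132 endothelial cells and 22, 11 and 56 fibroblasts as too shallow. The 9 targets together had 1.90, 2.32 and 0.570 UMIs per thinned endothelial cell. They had 0.877, 0.901 and 0.512 per fibroblast and 1.24, 1.86 and 0.355 per epithelial cell. Higher levels by themselves raise the share of cells with at least 2 targets, so these shares are not a separate result on targets occurring together.

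**Figure D5:**
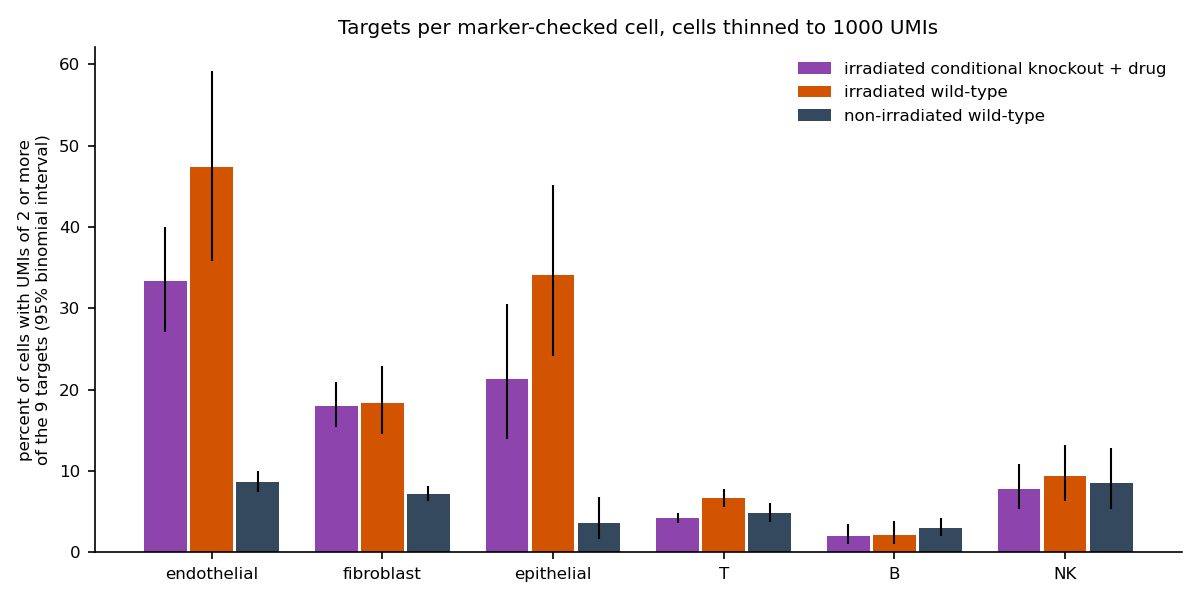
Percent of marker-checked cells with UMIs of at least 2 of the 9 targets after thinning to 1000 UMIs per cell, by compartment, with the irradiated conditional knockout with drug, irradiated wild-type and non-irradiated wild-type libraries from left to right and 95% binomial intervals. Endothelial cells reach 33.3%, 47.4% and 8.61%, while T cells are at 4.25%, 6.63% and 4.86%.

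Marker-checked structural cells with Cdkn1a carried another target more often than those without it in each library, and in irradiated fibroblasts the intervals lay apart. Of thinned fibroblasts with a Cdkn1a UMI, 61.3% (52.0 to 70.1) of the conditional knockout, 60% (47.6 to 71.5) of the irradiated wild-type and 36.8% (31.1 to 42.7) of the non-irradiated ones had a UMI of one of the 8 other targets. Of those without Cdkn1a, 42.0% (38.2 to 46.0), 36.4% (30.8 to 42.3) and 31.3% (29.6 to 33.1) had one, so the intervals lay apart in the irradiated libraries and overlapped in the non-irradiated one. In epithelial cells the shares were 55.3%, 63.6% and 18.4% with Cdkn1a and 26.2%, 38.5% and 9.18% without, with intervals that overlap in each library. In endothelial cells they were 58.2%, 70.5% and 30.3% with Cdkn1a and 54.2%, 40.6% and 25.9% without, and the intervals again overlap in each library. In T cells they were 21.3%, 29.5% and 20.5% with and 21.5%, 26.9% and 19.7% without, with overlapping intervals in each library. The epithelial and endothelial intervals rest on few cells, with 33 and 44 that had Cdkn1a in irradiated wild-type. By the gates the intervals lay apart in the irradiated wild-type Pecam1/Cdh5 gate, 42.4 to 62.4 against 24.9 to 35.8. Of the 401 cells of that gate 296 had none of the 8 further endothelial markers, and the part of this cell mix was not tested. The intervals also lay apart in the epithelial gate of the conditional knockout, 40.2 to 69.3 against 15.6 to 29.9. In the other irradiated library of each of these gates they overlapped.

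Other known p53 targets, a list of 31 genes, followed in part. In irradiated wild-type over non-irradiated marker-checked cells 5 of the 21 with enough UMIs were at least 2-fold higher in endothelium (3.48% of all genes), none of 29 in fibroblasts (0.798%) and 10 of 27 in epithelium (8.28%), and none was lower. For the conditional knockout over the same library the counts were 6 of 24, 1 of 30 and 10 of 27, with 2.2%, 0.705% and 8.34% of all genes. Gdf15, a secreted stress cytokine, had 396, 444 and 16.4 CPM in endothelium and 359, 374 and 76.3 CPM in epithelium of the conditional knockout, irradiated wild-type and non-irradiated libraries. Sesn2, a sestrin like Sesn1, had 40.2 CPM in irradiated wild-type and 5.79 CPM in non-irradiated endothelium, and Pmaip1, the cell death gene Noxa, 65.9 CPM in conditional knockout and 17.1 CPM in non-irradiated endothelium. Psrc1, a regulator of the mitotic spindle, had 17.8, 17.2 and 0.214 CPM in epithelium (42, 39 and 1 UMIs), and the interval of the irradiated wild-type ratio ran from 13.6 upward. In fibroblasts it had 11.8, 8.72 and 2.73 CPM.

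Lowest of that list in irradiated wild-type over non-irradiated endothelium were Rrm2b, a subunit of ribonucleotide reductase, at 31.8 and 49.4 CPM, and Ercc5, a repair endonuclease, at 18.4 and 26.6 CPM. Both ratios had intervals that reach no difference, 0.385 to 1.01 and 0.343 to 1.26. The epithelium had Ddit4 lowest, an inhibitor of mTORC1, at 29.1 and 47.5 CPM, and then Btg2, an antiproliferative gene, at 407 and 465 CPM. Ddit4 was among the highest in fibroblasts, at 30.8 and 15.1 CPM, while Perp, a desmosomal protein of cell death, at 3.08 and 5.60 CPM and Fas, a death receptor, at 57.2 and 66.8 CPM were the lowest. T cells had Apaf1, which assembles the apoptosome, at 34.1 and 11.6 CPM, Sesn2 at 15.6 and 5.36 CPM, Fas at 33.6 and 71.6 CPM and Gdf15 at 1.10 and 8.72 CPM.

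Regulators and relatives of p53, a list of 16 genes, had few members 2-fold apart in the structural compartments, where few of all genes were as well. In marker-checked endothelium of irradiated against non-irradiated wild-type none of the 10 measured was 2-fold apart. Of all genes 3.48% were higher there and 3.48% lower. Atr, a kinase of the damage response, had 25.1 and 15.7 CPM, a ratio of 1.60 (0.882 to 2.70). Hipk2, a kinase that phosphorylates p53, had 93.8 and 139 CPM. In fibroblasts none of 13 was apart, where 0.798% of all genes were higher and 0.73% lower. At shares that low, these counts of none say little on the list. In epithelium 2 of 15 were higher, where 8.28% of all genes were, the p53 relatives Trp63 at 14.5 against 0.855 CPM (33 and 4 UMIs) and Trp73 at 14.97 against 3.85 CPM (34 and 18 UMIs). Trp63 had 5.93 CPM and Trp73 11.9 CPM in conditional knockout epithelium. Trp63 marks airway basal cells and Trp73 is high in ciliated cells, and the part of the cell mix in these values was not tested. In lymphocytes the median log2 ratio was taken over the genes of this list with enough UMIs. In irradiated over non-irradiated wild-type it was 0.53 in NK (10 genes) and 0.37 in B cells (13 genes), with 0.16 and 0.09 for all genes. In the conditional knockout over irradiated wild-type it was -0.44 in NK (10 genes) and -0.49 in B cells (14 genes), with -0.13 for all genes in both. Usp7 in NK cells was past 2-fold in irradiated over non-irradiated wild-type, at a ratio of 2.10 (1.60 to 2.79).

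Across the 18 gate values of 6 compartments and 3 libraries, the genes most alike to the mean of the 9 targets were Exoc4 (Pearson r 0.904), Atp5k (0.903), Minos1 (0.901), Lgals3bp (0.901) and Vdac1 (0.898), of 6121 genes with a mean of at least 20 CPM. The values share libraries, depth and cell types, so r is a description. Among the targets themselves, r against the mean of the others was 0.90 for Ccng1, 0.89 for Eda2r, 0.87 for Zmat3, 0.73 for Phlda3 and 0.69 for Cdkn1a. It was 0.54 for Aen, 0.41 for Trp53inp1, 0.34 for Mdm2 and -0.25 for Sesn1. Trp53 against the 9 targets gave -0.11.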

How the data were processed

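Single-cell 3′ RNA libraries of mouse lung were measured as UMI counts per gene and barcode. The counts were deposited by the authors as raw matrices, 1 per library, with every barcode at 500 UMIs or more; the matrix header gives software version 3.1.0 per the file headers, and the build is mm10 per the submitters' processing notes. The aligner is not given in the sources, and 0 per-sample columns were left unused. From these counts, cells were filtered (at least 250 genes, at most 15% mitochondrial UMIs) and gated by the defining genes above, and a cell could pass more than 1 gate (597, 313 and 1206 cells of the irradiated conditional knockout with drug, irradiated wild-type and non-irradiated libraries did). UMIs were summed per compartment and library and divided by the compartment's total to give CPM. Doublets were kept: the automatic Scrublet threshold marked 0, 3 and 408 cells and was not used, and removing the top-scoring 893 (9.03%), 329 (5.67%) and 1622 (12.4%) cells was an alternative. Since each group is 1 library, ratios carry exact intervals at 95%, which cover counting error only, and no p-value was computed. Depth sets how wide these intervals are, and members under 10 expected UMIs were left out of the counts of higher or lower values. The ratio calculation was tested on simulated data. The named genes are all 10 members, the 2 highest and 2 lowest of the other targets and of the regulators per compartment described, and the 5 genes most alike by Pearson r of log2 CPM with 5 CPM added. Usp7 in T and B cells was chosen after its values were seen. The members, the lists and the marker-checked set were chosen with earlier results of these data known. Alternatives covered gating, doublets, the mitochondrial limit, cell weighting, thinning, scaling, the CPM added, the low-value filter, the fold and the sex type of cells. Promoter windows and gene positions came from RefSeq and the annotation of GRCm38. The scripts ran in Python 3.11.15 with scipy 1.17.1 for the intervals, scanpy 1.11.5 for Scrublet, pandas 2.3.3, numpy 2.4.6 and random seed 1.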

Additional observations from a re-analysis of the deposited data

Results flagged for a closer look

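Phlda3 was the target whose compartments stood on opposite sides of 2-fold in the same pair of libraries, by the gates. For irradiated over non-irradiated wild-type its log2 ratio was 2.27 in epithelium, and -1.17 in T, -1.30 in B and -2.17 in NK cells. For the irradiated conditional knockout with drug over non-irradiated wild-type it was 2.37 in epithelium and -1.25 in B cells. The difference between compartments was not tested, since each group is 1 library. In marker-checked cells the irradiated wild-type ratios were 3.31 in epithelium, -0.84 in T and -0.59 in B cells, and NK cells had only 2 UMIs in irradiated wild-type and 3 in the non-irradiated library.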

How the results depend on the processing

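No paired analysis was possible because each group has 1 library and the groups share only replicate number 1; for the same reason no replicate could be left out. By the gates 24 single values of 180 were 2-fold apart, and all 24 kept their direction under every alternative run except marker-checked female type cells, where 23 did; 9 to 24 of them stayed past 2-fold, with 9 in cells thinned to 1000 UMIs and 11 with 20 CPM added. The count of structural targets higher in irradiated than in non-irradiated wild-type, 8 by the gates, was 13 in cells of 1 gate only and with 1 CPM added, 15 with doubled gate minimums and 19 at 1.5-fold. Marker-checked cells, an alternative chosen after seeing the data, gave 17, also for female type cells alone and with doublets removed, and 15 with median-of-ratios scaling or every cell weighing the same. The 11 for the conditional knockout with drug over non-irradiated wild-type was 5 when every cell weighed the same, 4 in thinned cells and with 20 CPM added, 18 at 1.5-fold and 17 in marker-checked female type cells. For the conditional knockout over irradiated wild-type, 1 structural value was higher at 1.5-fold, where none was at 2-fold, and the count of lower ones, 0, was 3 when every cell weighed the same and at 1.5-fold, 2 in thinned cells and 2 in marker-checked cells of equal weight. In lymphocytes the count higher in irradiated than non-irradiated wild-type, 0, was 2 at 1.5-fold and 1 (Trp53inp1 in NK cells) in marker-checked cells, in those of female type and in those with doublets removed, but 0 in marker-checked cells with median-of-ratios scaling or with every cell weighing the same. The single lymphocyte value higher in the conditional knockout than in irradiated wild-type, Phlda3 in NK cells, was lost (0) in cells of 1 gate only, with doublets removed, doubled gate minimums, thinning, 20 CPM added and in each marker-checked setting. The count of lower lymphocyte values there, 0, was 2 in thinned cells and at 1.5-fold and 1 in marker-checked female type cells. Phlda3 in NK cells, irradiated over non-irradiated wild-type, reversed to a log2 ratio of 0.015 in marker-checked female type cells. The cause of these changes was not tested. Marker-checked irradiated wild-type endothelium is 84 cells, so its rarer targets rest on few UMIs.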

Other observations

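Within the irradiated wild-type library, marker-checked fibroblasts of female type (260 cells) and of male type (35 cells) differed in several p53 targets, most of them higher in female type. Cdkn1a stood at 398 CPM in female type and 145 CPM in male type cells, a ratio of 2.74 (2.19 to 3.49). Of the male type cells 18 had a Cdkn1a UMI, and 1 cell held 35.0% of these UMIs. Mdm2 stood at 121 and 59.8 CPM, Trp53inp1 at 84.9 and 43.5 CPM and Eda2r at 25.8 and 9.07 CPM, while Phlda3 at 256 and 219 CPM had a ratio of 1.17 (0.963 to 1.43). Trp53 was lower in female type, at 55.7 and 81.6 CPM and a ratio of 0.682 (0.488 to 0.972). Female type fibroblasts of the non-irradiated library had Cdkn1a at 123 CPM. In endothelium the irradiated wild-type cells of female type (43) had Cdkn1a at 959.8 CPM and those of male type (15) at 1145 CPM, a ratio of 0.839 (0.688 to 1.03), and Trp53inp1 was lower in female type at 0.546 (0.346 to 0.878). In epithelium Cdkn1a was lower in female type (65 cells), at 606 CPM against 1330 CPM and a ratio of 0.456 (0.395 to 0.528), but male type was 5 cells and 1 of them held 74.6% of the male type UMIs. In T cells Cdkn1a had 171 CPM in female type (1249 cells) and 178 CPM in male type cells (650 cells). Nothing in the labels says which mice the male type cells came from.

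The tables also count a dTomato reporter transcript, which 273 (35.0%) of the marker-checked fibroblasts of the conditional knockout with drug, 146 (40.1%) of irradiated wild-type and 1326 (42.2%) of the non-irradiated library carried. Cdkn1a stood at 229, 404 and 123 CPM in fibroblasts with dTomato and at 246, 300.7 and 121 CPM in those without, in the same order. Median depth was 10816, 11330.5 and 9242.5 UMIs in fibroblasts with dTomato and 7263, 6569 and 6167.5 UMIs in those without.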
